A study of Mus musculus with 4 samples.

Results

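The cytosolic ribosomal protein genes are the nuclear genes for the proteins of the cytoplasmic ribosome. They were taken by symbol from the genes classed as protein-coding, with the Rpl, Rps, Rplp and Rpsa names as the pattern. The pattern matched 77 genes, of which Rpl22, Rpl7 and Rps27 were left out by the rule, and the remaining 74 genes were all present in both deposited gene tables. They comprised 44 genes of the large subunit and 30 of the small subunit, among 13478 genes common to the tables. Fau, whose symbol does not follow the pattern although its product includes a ribosomal protein, is not among them.

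RNA immunoprecipitation and sequencing measured the RNA recovered with anti-Flag antibody from mouse cells overexpressing Flag-tagged Lin28b. There were 4 libraries, 1 in each group: the IP of wild-type Flag-Lin28b (WT IP), its input (WT input), the IP of a Flag-Lin28b mutant deficient in RNA binding (MU IP) and its input (MU input). All 4 came from overexpressing cells of 1 line, labelled CAFs, meaning fibroblasts associated with pancreatic cancer, and the sources used here do not say whether they were clones. The study asked which RNAs the wild-type protein recovers, and the mutant served as its control. With 1 library in each group no difference had a replicate check and no test was possible, so every value describes single libraries.

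Ribosomal proteins assemble with ribosomal RNA into a large and a small subunit, and their mRNAs are among the most abundant and most translated of a growing cell. In mammals these mRNAs typically begin with a C followed by a stretch of pyrimidines, the 5′ terminal oligopyrimidine (TOP) tract, through which mTOR signalling and the protein Larp1 control their translation. Lin28 proteins block maturation of the let-7 microRNAs and also bind many mRNAs, including mRNAs of ribosomal proteins in some cell types.

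Ahead of the values, the annotated starts of 10 members are shown, because the start is where a TOP tract would lie; 3 of the 10 carry such a tract. Each line gives 40 bases before and the first 20 bases from the start that RefSeq annotates (build GRCm38.p6), 5′ to 3′ on the gene's strand, with the longest run of C and T in capitals. Rps16, Rpl5 and Rplp0 were the members with the highest WT ratios or peak folds among those with a window, Rps10, Rpl38 and Rpl35 carried a tract at the start and were among the lowest in the MU IP or the largest differences, Rpl7a had the longest run, and Rpl34, Rpl35a and Rpl9 stood at the ends of the MU range.
Rps16, chr7:28350649-28350708, plus strand: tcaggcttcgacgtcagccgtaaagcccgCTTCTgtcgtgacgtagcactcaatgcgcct
Rpl5, chr5:107900488-107900547, plus strand: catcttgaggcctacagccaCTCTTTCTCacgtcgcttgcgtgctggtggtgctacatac
Rplp0, chr5:115559427-115559486, plus strand: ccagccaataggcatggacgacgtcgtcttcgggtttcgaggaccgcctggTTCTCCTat
Rps10, chr17:27635225-27635284, minus strand: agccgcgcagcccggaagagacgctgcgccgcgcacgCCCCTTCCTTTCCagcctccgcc
Rpl38, chr11:114668540-114668599, plus strand: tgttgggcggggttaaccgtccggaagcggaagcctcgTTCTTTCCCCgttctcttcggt
Rpl35, chr2:39005112-39005171, minus strand: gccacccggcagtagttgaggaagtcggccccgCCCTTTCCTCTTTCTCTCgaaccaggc
Rpl7a, chr2:26910767-26910826, plus strand: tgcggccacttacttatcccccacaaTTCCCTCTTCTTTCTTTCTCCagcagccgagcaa
Rpl34, chr3:130730379-130730438, minus strand: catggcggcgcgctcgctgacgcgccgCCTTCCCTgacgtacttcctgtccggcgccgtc
Rpl35a, chr16:33056413-33056472, plus strand: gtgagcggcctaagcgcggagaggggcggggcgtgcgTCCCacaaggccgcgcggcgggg
Rpl9, chr5:65391412-65391471, minus strand: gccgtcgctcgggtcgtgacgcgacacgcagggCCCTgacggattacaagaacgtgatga

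RefSeq start windows were matched for 55 of the 74 members by symbol. A TOP-like tract, defined as C at the annotated start followed directly by at least 4 further C or T on the gene's strand, stood in 11 of 55 members (20.0%). The same letters stood at the start in 457 of 21199 other protein-coding windows (2.16%) and in 2.47% of 32787 other windows of all kinds. A looser measure, a run of at least 8 C or T within 20 bases either side of the start, was found in 25 of 55 members (45.5%), against 15.7% of other protein-coding windows. For 7 members with several annotated starts the nearest to the gene table's start was taken. The start used lay a median of 35 bases and at most 3553 bases from the gene table's start; among the printed windows it lay 1425 bases away for Rps10 and 493 for Rpl35, and 56 or fewer for the others. In Rps10, Rpl38 and Rpl35 the run in capitals covers the start itself, whereas in Rps16 and Rpl5 the longest run ends upstream of the start and in Rplp0 it lies downstream. The run of 21 bases in Rpl7a also covers the start, but the annotated first base is T, so Rpl7a counts as without a tract. Whether transcripts in these cells begin at the annotated base was not tested, so a member without a tract here may still have a TOP mRNA.

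The label of fibroblasts was checked in the inputs against marker genes. Levels are in FPKM (reads per kilobase of transcript, scaled to library size), a unit read from the values because the header names no unit, and the authors normalised each table separately. Of 10 fibroblast markers 4 were in both tables, with Vim at 607 FPKM in the WT input and 547 in the MU input but Col1a1, Acta2 and Pdgfra between 0.227 and 1.33, and Col1a2, Col3a1, Pdgfrb, Dcn, Lum and Fap not in both tables. Of 5 epithelial markers 4 (Krt8, Krt18, Krt19 and Cdh1) were present, between 219 and 665 FPKM in the WT input and between 114 and 494 FPKM in the MU input. The leukocyte marker Cd68 stood at 0.704 FPKM in the WT input and 2.45 in the MU input, and no endothelial marker was in both tables. The collagen gene Col1a1 was thus near 0 beside high keratin levels, and CAFs is used here as a label only. The part of the cells' identity in the recovery of ribosomal protein mRNAs was not tested.

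The inputs held the ribosomal protein mRNAs at high and closely similar levels. Their summed level was 34442 FPKM in the WT input, 10.7% of the sum over the whole table, and 31496 FPKM in the MU input, 10.1% of that table. The member median was 438 FPKM in the WT input and 422 in the MU input, and 46 of the 74 members were among the 100 most abundant genes of each input. Input levels of 73 of 74 members lay within 1.5-fold of each other between the constructs. The share of all genes within that limit is not given here, so no trait of the members is read from this count. The correlation of input levels across the 74 genes was Pearson 0.95 and Spearman 0.94, as a description of genes that share both libraries. In bulk RNA, fewer cells of a type and less RNA per cell cannot be told apart.

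Single members spanned a wide range of input levels. Rpl23a, a protein at the rim of the peptide exit tunnel, was highest at 1036 FPKM in the WT input and 933 in the MU input. Rps12, a protein of the head of the small subunit, stood at 940 in the WT input and 711 in the MU input, and Rplp0, the base of the ribosomal stalk, at 917 in the WT input and 753 in the MU input. At the low end, Rps15a stood at 40.1 FPKM in the WT input and 42.4 in the MU input and Rps20 at 84.5 in the WT input and 62.8 in the MU input, the 2 members below 100 FPKM in each input. Both were lower still in the IPs, Rps15a at 30.8 FPKM in the WT IP and 4.85 in the MU IP, and Rps20 at 49.4 in the WT IP and 7.45 in the MU IP.

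In the IPs the summed and median levels of the members were lower than in the inputs for both constructs, and lower still for the mutant. Single members above their input numbered 12 in the WT IP and 2 in the MU IP, against 5096 for WT and 3932 for MU of all 13478 genes. The members' summed level was 23527 FPKM in the WT IP (8.21% of the table's sum) and 6862 FPKM in the MU IP (3.31%). The median was 224 FPKM in the WT IP and 67.5 in the MU IP, and 31 members were among the 100 most abundant genes in the WT IP, against 10 in the MU IP. Levels were also more uneven than in the inputs, with a coefficient of variation across members of 79.4% in the WT IP and 93.0% in the MU IP, against 44.5% in the WT input and 42.8% in the MU input. Since each level is scaled to its library size, a lower IP level is relative to the other RNAs recovered and is not an absolute amount. The levels of all genes did not sum to the same value. The sums were 286718 FPKM in the WT IP, 321238 in the WT input, 207301 in the MU IP and 313359 in the MU input.

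**Figure D1:**
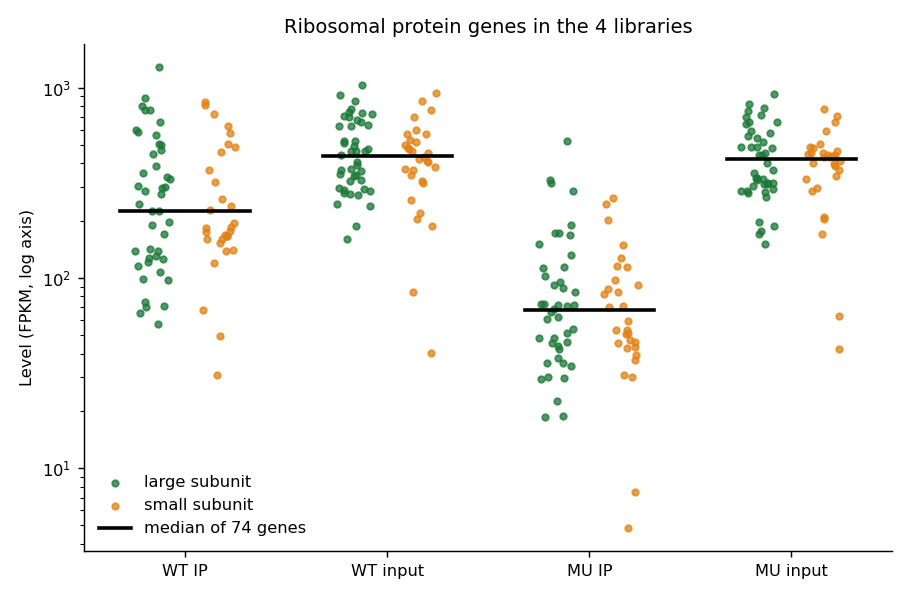
Level of each of the 74 ribosomal protein genes (FPKM, log axis) in the WT IP, WT input, MU IP and MU input, with large-subunit genes in green, small-subunit genes in orange and a black bar at the median. The medians were 224 FPKM in the WT IP, 438 in the WT input, 67.5 in the MU IP and 422 in the MU input, and the points spread more in both IPs than in both inputs.

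Ratios of IP over input were taken as log2 of (IP + 0.01) over (input + 0.01), as in the authors' deposited ratio. In the wild type the member median was −0.95 (quartiles −1.44 and −0.19), a 1.93-fold lower level in the IP, and the SD across the 74 genes was 0.88. At a 2-fold threshold 2 members were higher in the WT IP, against 7.74% of all 13478 genes, and 33 members (44.6%) were lower, against 21.7% of all genes. In the mutant the median was −2.68 (quartiles −3.17 and −2.06), a 6.39-fold lower level, with an SD of 0.91. There 1 member was at least 2-fold higher, against 5.99% of all genes, and 69 members (93.2%) were lower, against 37.1% of all genes. The median over all genes was −0.28 for WT and −0.59 for MU, so the members lay below the typical gene in both IPs.

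The WT ratio exceeded the MU ratio in 70 of 74 members, against 63.2% of all genes. The WT minus MU difference had a median of 1.64 on the log2 scale, against 0.32 over all genes, and ranged from −1.69 to 3.78. It was at least 1 in 60 members (81.1%), against 26.1% of all genes, at least 2 in 27 members, against 9.54%, and at least 3 in 8 members, against 4.44%. A difference of −1 or less was found in 1 member, Rpl35a, against 7.37% of all genes. The WT IP level exceeded the MU IP level in 70 members, against 61% of all genes, and by at least 4-fold in 33, against 10.7%. The median WT over MU fold across members was 3.37 for the IPs, whereas for the inputs it was 1.10. Of the 74 genes, 32 were at least 2-fold lower in both IPs, against 15.7% of all genes, and 37 were lower in the MU IP alone, against 21.4%. A further 1 (Rps27a) was lower in the WT IP alone and 4 were lower in neither. Among all 13478 genes, 2920 were lower in the WT IP, 5000 in the MU IP and 2116 in both.

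The medians of the large and small subunits lay close together. The WT median was −0.96 for 44 large-subunit genes and −0.92 for 30 small-subunit genes, and the MU median was −2.69 for large-subunit genes and −2.66 for small-subunit genes. The large minus small gap was −0.04 for WT and −0.02 for MU, against SDs across members of 0.88 for WT and 0.91 for MU. At the 2-fold threshold 20 of 44 large-subunit and 13 of 30 small-subunit genes were lower in the WT IP, and 41 large-subunit and 28 small-subunit genes were lower in the MU IP. The median WT minus MU difference was 1.72 for the large and 1.52 for the small subunit.

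**Figure D2:**
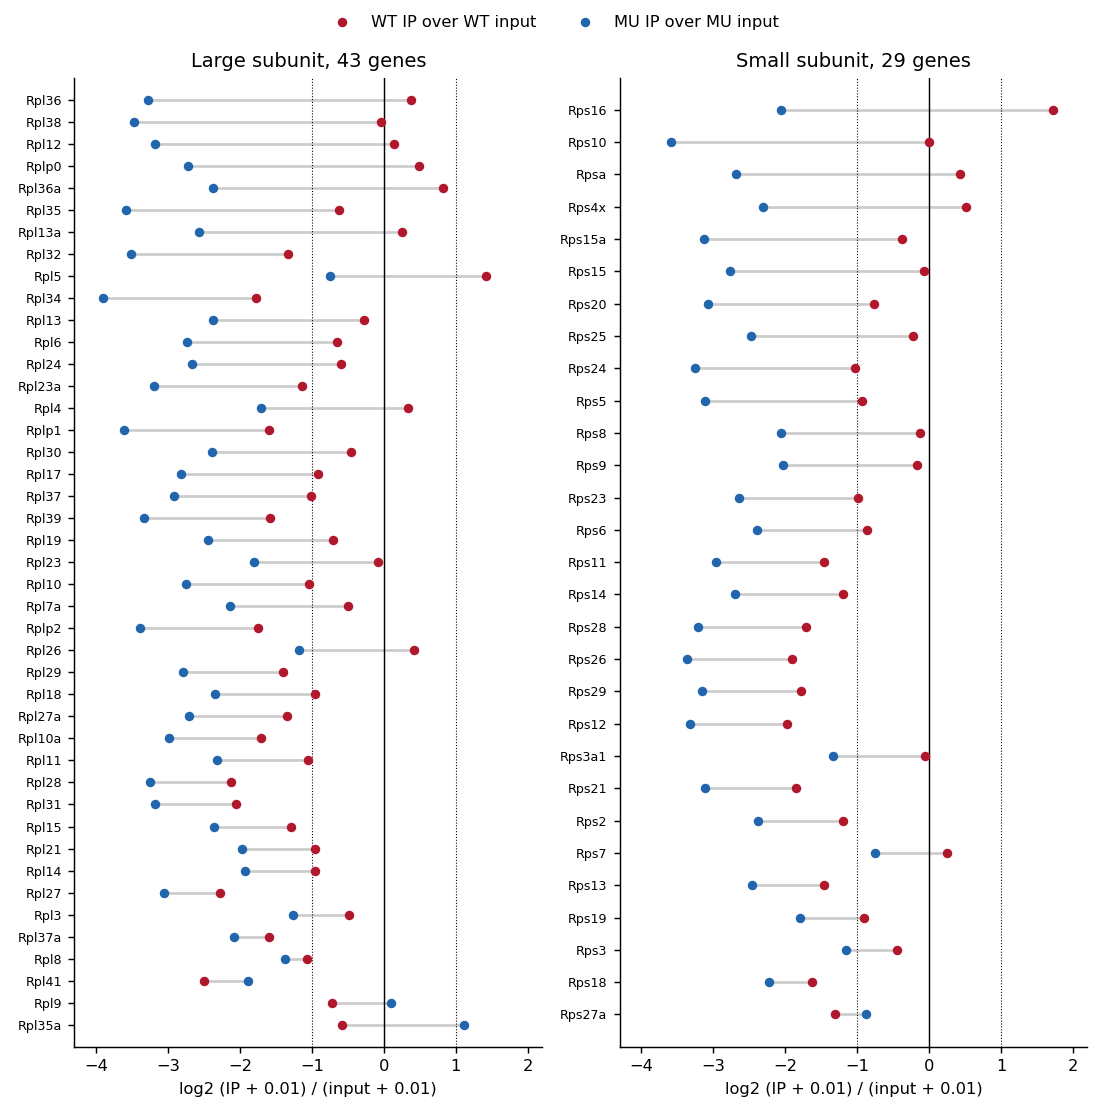
log2 ratio of IP over input for single members, WT in red and MU in blue, in separate panels for large-subunit and small-subunit genes (members not reported here are left out), sorted by the WT minus MU difference with the largest at the top; dotted lines mark 2-fold. In all but Rpl35a, Rpl9, Rpl41 and Rps27a the WT point lies to the right of the MU point.

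Rps16, a protein of the head of the small subunit close to the transfer RNAs, had the highest WT ratio and the largest difference of all members. Its gene (chr7:28350652-28353155, plus strand, GRCm38 as in the tables) stood at 845 FPKM in the WT IP, 256 in the WT input, 50.5 in the MU IP and 209.6 in the MU input. The WT IP was the high library, 16.7-fold above the MU IP. Relative to input, Rps16 was 3.30-fold higher in the WT IP and 4.15-fold lower in the MU IP, a difference of 3.78 on the log2 scale. A gene with its name as a pseudogene is listed in the MU table. Whether reads are shared with such a copy was not tested, and its level is uncertain to that extent.

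Rpl5, which binds 5S ribosomal RNA and, with Rpl11, holds back the p53 ligase Mdm2, was the other member at least 2-fold higher in the WT IP. It stood at 768 FPKM in the WT IP, 286 in the WT input, 172 in the MU IP and 288 in the MU input, so that the inputs were nearly equal and the WT IP stood apart. The fold over input was 2.68 for WT, while the MU IP was 1.68-fold lower than its input. The gene (chr5:107900502-107909005, plus strand) overlaps the coding gene Dipk1a, holds 3 snoRNA genes and has 2 named pseudogene copies listed, so its level carries the same uncertainty as that of Rps16. Its partner Rpl11 stood at 171 FPKM in the WT IP, 354 in the WT input, 62.2 in the MU IP and 311 in the MU input, and was lower in both IPs, with log2 ratios of −1.05 for WT and −2.32 for MU.

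With Rps16 and Rpl5, 12 members had a WT ratio above 0, against 37.8% of all genes. The other 10 did not reach 2-fold, from 0.82 in Rpl36a to 0.14 in Rpl12, and in each of them the MU ratio was negative. Rpl36a, an X-linked gene for a protein near the exit site of transfer RNA, stood at 657 FPKM in the WT IP, 373 in the WT input, 51.2 in the MU IP and 267 in the MU input. Rps4x, an X-linked gene of the small subunit, stood at 812 FPKM in the WT IP, 572 in the WT input, 87.3 in the MU IP and 432 in the MU input. The MU IP was the low library for both genes, 12.8-fold below the WT IP for Rpl36a and 9.31-fold for Rps4x. Rpl36, a large-subunit protein, had a WT ratio of 0.38, a MU ratio of −3.28 and the second largest difference, 3.66. The remaining members of these 10 were Rplp0, Rpsa, Rpl26, Rpl4, Rpl13a, Rps7 and Rpl12.

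Rps10 and Rpl38 were recovered near their input level by the wild type and among the least by the mutant. Rps10, a protein of the small-subunit head that is ubiquitinated when ribosomes collide, stood at 321 FPKM in the WT IP, 322 in the WT input, 36.9 in the MU IP and 445 in the MU input. Its MU IP was 12.1-fold below input, and the difference was 3.59. Rpl38, known in mouse for translation of Hox mRNAs, stood at 507 FPKM in the WT IP, 522 in the WT input, 43.6 in the MU IP and 486 in the MU input. Its MU IP was 11.1-fold below input and the difference was 3.43.

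The lowest MU ratio belonged to Rpl34, a large-subunit protein, at 130 FPKM in the WT IP, 445 in the WT input, 30.1 in the MU IP and 451 in the MU input. The log2 ratio was −1.77 for WT and −3.91 for MU. Rplp1, an acidic stalk protein, had −1.60 for WT and −3.61 for MU, and Rpl35, at the exit tunnel, had −0.62 for WT and −3.58 for MU. These genes were lower in both IPs than in the inputs, and the MU IP was the lower of the IPs for each.

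Other members were low in the WT IP as well, and for them the constructs lay closer. Rpl27 had −2.27 for WT and −3.05 for MU, Rpl28 had −2.12 for WT and −3.26 for MU, and Rpl31 had −2.06 for WT and −3.19 for MU. Their differences, from 0.78 for Rpl27 to 1.14 for Rpl28, were below the member median of 1.64.

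Exactly 4 members ran the other way, with a higher ratio and a higher IP level for MU. Rpl35a, a large-subunit protein mutated in human Diamond-Blackfan anaemia, stood at 126 FPKM in the WT IP, 188 in the WT input, 329 in the MU IP and 152 in the MU input. It was 1.49-fold lower in the WT IP and 2.17-fold higher in the MU IP, the single member higher for MU, with a difference of −1.69. The gene (chr16:33056453-33060189, plus strand) overlaps the coding gene Iqcg, and reads of overlapping genes may not be separable. Rpl9, a large-subunit protein, stood at 301 FPKM in the WT IP, 493 in the WT input, 522 in the MU IP and 489 in the MU input, and 3 named pseudogene copies are listed for it. Rpl9 was thus lower in the WT IP and near its input in the MU IP, with log2 ratios of −0.71 for WT and 0.09 for MU.

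Rpl41, the smallest ribosomal protein and a bridge between the subunits, stood at 138 FPKM in the WT IP, 776 in the WT input, 191 in the MU IP and 706 in the MU input. Its ratios were −2.49 for WT and −1.89 for MU. Rps27a, whose product is a fusion of ubiquitin with a small-subunit protein, stood at 167 FPKM in the WT IP, 414 in the WT input, 246 in the MU IP and 453 in the MU input. Both genes were below input in both IPs, with differences of −0.61 for Rpl41 and −0.43 for Rps27a. Next in order came Rpl8, a protein near the peptidyl transferase centre, with a difference of 0.31.

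**Figure D3:**
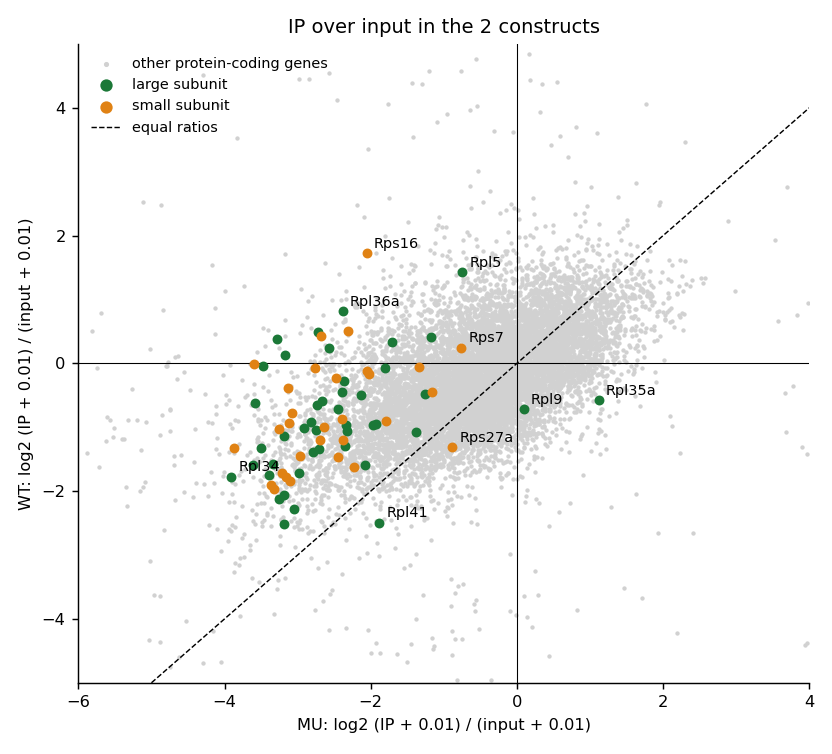
WT log2 ratio of IP over input (vertical) against the MU ratio (horizontal) for large-subunit genes (green), small-subunit genes (orange) and 11186 other protein-coding genes (grey, of which 79 lie beyond the axes); the dashed line marks equal ratios. Most members lie far to the left and above the dashed line, while Rpl35a, Rpl9, Rpl41 and Rps27a lie below it.

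Across the 74 genes the WT and MU ratios correlated with Pearson 0.36 and Spearman 0.41, a description over genes that shared the same libraries. Ratio and input level showed little relation, with Spearman 0.04 for WT and −0.03 for MU. Gene span had a Spearman correlation of 0.36 with the WT ratio and 0.21 with the MU ratio, while the Pearson correlation was 0.09 for WT and 0.08 for MU. Among the 55 members with a start window, the 11 with a tract at the annotated start had medians of −0.96 for WT and −3.13 for MU, and the 44 without had −0.68 for WT and −2.45 for MU. These classes rest on the annotated first base, and a pyrimidine run across the start with T at that base counts as without. Host genes of snoRNAs and other members lay close together: the 30 members with a snoRNA gene in their span had medians of −0.71 for WT and −2.63 for MU, and the other 44 had −0.98 for WT and −2.68 for MU.

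Grouped by place in the ribosome, every role group of more than 1 gene had a lower median for MU than for WT. The WT ratio exceeded the MU ratio in 70 of all 74 members, so nearly any grouping would give this. No trait of a place in the ribosome is read from it. The 4 stalk proteins (Rplp0, Rplp1, Rplp2 and Rpl12), which recruit elongation factors, had a median of −0.73 for WT and −3.28 for MU. Within the stalk the WT ratio was 0.49 for Rplp0 and 0.14 for Rpl12, against −1.60 for Rplp1 and −1.75 for Rplp2, so proteins of a single structure differed in the WT IP. All 4 were at least 2-fold lower in the MU IP, where 69 of all 74 members were lower. The 8 proteins of the peptide exit tunnel and its rim had medians of −0.81 for WT and −3.00 for MU. Of them 3 were lower in the WT IP, against 33 of all 74 members, and all 8 in the MU IP, against 69. These counts lie near those of all members. With each construct's ratios centred on its table's median, 2 of 8 were lower in the WT IP and 7 of 8 in the MU IP, where Rpl26 stood at −0.57.

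In the small subunit, Rps2 and Rps3 line the channel where mRNA enters. Rps2 had a log2 ratio of −1.20 for WT and −2.37 for MU, and Rps3 had −0.45 for WT and −1.16 for MU, or −0.55 for MU after the same centring. The 6 proteins near the mRNA exit had medians of −1.07 for WT and −2.91 for MU, with Rpsa highest for WT at 0.43. In the decoding region, Rps15 had −0.07 for WT and −2.77 for MU, and Rps23 had −0.99 for WT and −2.64 for MU. The 7 proteins of the head and the neighbourhood of the scaffold protein Rack1, Rps16 among them, had medians of −0.90 for WT and −3.16 for MU. A list of 16 members mutated in human Diamond-Blackfan anaemia, a red-cell disorder, had medians of −1.04 for WT and −3.09 for MU. It included Rpl5, with the highest WT ratio of these 16, and Rpl35a, with the highest MU ratio of these 16. The list was drawn up by hand and does not hold every member reported in the disease, so its medians describe the listed genes alone.

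Genes resembling the members in function, length and abundance gave the scale for these ratios. Among 21 other TOP mRNAs and ribosome-associated factors the median was 0.06 for WT and −1.54 for MU, with a median difference of 1.65. In that list the WT IP was higher by at least 2-fold for 2 genes, the translation initiation factor subunits Eif3l (1.67) and Eif3e (1.31), and 3 were lower, Eif3k (−1.47), Rack1 (−1.16) and the growth-related protein Tpt1 (−1.05). In the MU IP 13 of the 21 were lower and 0 higher. The 32 ribosome biogenesis factors found, of 34 names listed, had medians of −0.49 for WT and −0.84 for MU and a median difference of 0.26, with 5 lower in the WT IP and 14 lower in the MU IP. Mdn1 and Heatr1, which act in ribosome assembly, were the 2 that were higher in the MU IP.

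Nuclear genes of the mitochondrial ribosome and of oxidative phosphorylation, many of them short, likewise had medians below 0 for both constructs. The 78 mitochondrial ribosomal protein genes had medians of −0.80 for WT and −2.04 for MU, and the 71 oxidative phosphorylation genes had −0.97 for WT and −2.82 for MU. The members had a median span of 3266 bases, against 18420.5 over all genes. Among other protein-coding genes the median ratio was −0.96 for WT and −1.77 for MU for 1189 genes of up to 5 kb, and 0.01 for WT and −0.09 for MU for 6196 genes over 20 kb. Set beside 116 other coding genes of up to 5 kb with a mean input over 100 FPKM, whose median was −2.23 for MU, the 58 members in that class had −2.71, and for WT both classes had the same median to 2 decimals. A difference of at least 1 was found in 81.0% of those 58 members and 61.2% of the 116 other genes. The part that span and abundance play in these ratios was not tested.

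**Figure D4:**
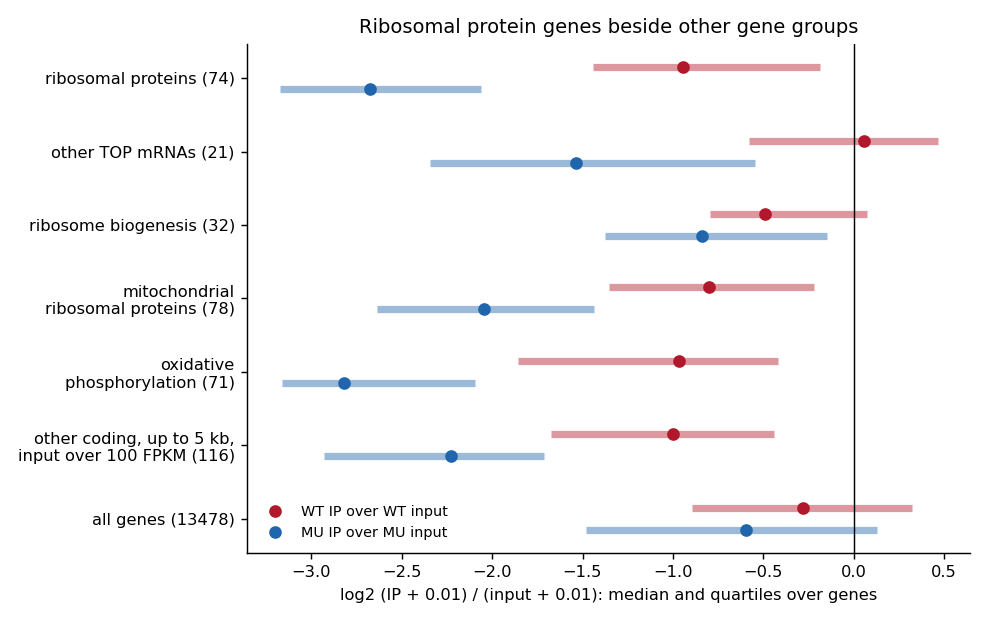
Median (point) and quartiles (bar) of the log2 ratio of IP over input for ribosomal protein genes, 5 other gene groups and all genes, WT in red above MU in blue, with the number of genes in parentheses. Ribosomal protein genes, mitochondrial ribosomal protein genes, oxidative phosphorylation genes and other short abundant genes all had MU medians of −2.04 or lower, against −0.59 over all genes.

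Peaks give a second view of the same IP libraries, so they are not independent of the ratios. The WT list held 31 peaks with their summit on the strand of a member, in 16 of 74 genes (21.6%), against 25.1% of all genes. The MU list held 3 such peaks in 2 genes (2.70%), against 18.6% of all genes. The WT share was thus near that of all genes while the MU share was below it, in genes that are shorter than most. Rpl35a and Rpl9, the genes with a MU peak, had no WT peak, and no peak of a member overlapped one in the other list by at least 1 base. With different genes in the 2 lists an overlap was hardly possible. The share of overlapping peaks over the whole lists is not given here, so no trait of the members is read from it. The 12 members with a WT ratio above 0 all carried a WT peak, and the others with a WT peak were Rpl13, Rpl15, Rpl23 and Rps15.

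The authors' fold of a peak is used here to describe peaks within each list. The median over the 31 WT peaks was 2.67, against 3.77 over the 11912 peaks of the WT list. Rpl5 carried 7 peaks, with folds from 1.61 to 12.2, the highest at chr5:107907029-107907259. Rps16 carried 2, at chr7:28350826-28351061 (fold 5.55) and chr7:28352012-28352654 (fold 9.46). Rplp0 carried 4, with folds up to 6.97, and Rps4x carried 4, up to 3.36. In 23 of the 31 peaks the summit lay in the second part of the gene, beyond its midpoint, and the median summit position was 77.5% of the span from the gene's start. The span includes introns, and 7 of the 31 peaks lie in Rpl5. Positions over the whole WT list are not given here, so whether this place is particular to the members was not tested. A small RNA gene overlapped 5 of the 31 peaks, in Rpl5 (Snord21), Rpl12 (Snora65), Rpl13 (Mir7079) and Rpl13a (Snord35a and Snord32a).

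Of the 3 MU peaks, 2 lay in Rpl35a, at chr16:33058498-33058759 (fold 3.19) and chr16:33059919-33060133 (fold 9.73), and 1 lay in Rpl9 (fold 1.27). Peaks on the strand opposite a member were found in 2 members in the WT list, Rpl5 and Rps16, against 1.96% of all genes, and in 1 member in the MU list, Rpl35a, against 2.23% of all genes. All 4 opposite-strand WT peaks overlapped a peak on the gene's strand, with folds of 1.97 and 8.94 in Rpl5 and of 8.04 and 4.26 in Rps16. The Rpl5 peak of fold 8.94 (chr5:107907231-107907453) did so only at its edge, with the peak at chr5:107907029-107907259. It also overlapped a small RNA gene, Gm26387. The opposite-strand MU peak in Rpl35a (fold 3.74) overlapped no peak on the gene's strand. The 3 genes with opposite-strand peaks were the 3 that were at least 2-fold higher in an IP.

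**Figure D5:**
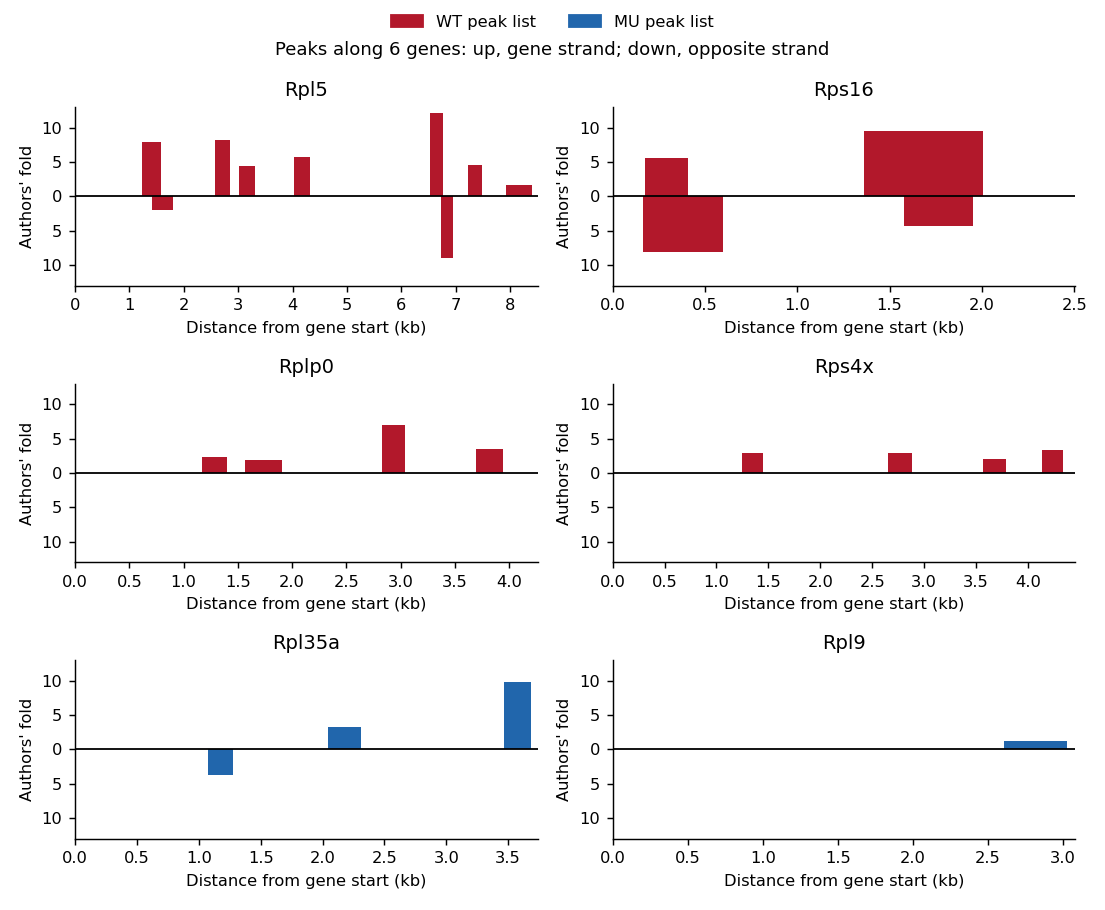
Peaks along Rpl5, Rps16, Rplp0, Rps4x, Rpl35a and Rpl9, with distance from the gene start in kb (horizontal) and the authors' fold of the peak (vertical), WT list in red and MU list in blue; bars above 0 are on the gene's strand and bars below 0 on the opposite strand. Rpl5 shows 7 WT peaks on its own strand, Rplp0 and Rps4x show 4 each, and Rpl35a and Rpl9 carry MU peaks alone.

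Genes outside the rule help place these values. Rpl22, left out by the rule, had log2 ratios of 0.02 for WT and −2.70 for MU, whereas its paralogue Rpl22l1 had 3.36 for WT and −2.04 for MU. Rpl7 had −0.67 for WT and −1.08 for MU, and Rps27 had −1.67 for WT and −3.20 for MU. The housekeeping mRNA Actb had −1.02 for WT and −1.64 for MU, and Gapdh had −0.98 for WT and −1.60 for MU. Lin28b itself stood at 8.99 FPKM in the WT IP, 13.8 in the WT input, 36.7 in the MU IP and 30.01 in the MU input.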

How the data were processed

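The levels, ratios and peaks came from RNA immunoprecipitation libraries of 4 groups, 1 library each. Tools listed without a role, per the submitters' processing notes, are bedtools, HOMER 4.11.1, MACS2 2.2.7.1 and HISAT2 2.1.0, and the builds are GRCm38 and mm10. The authors' deposited levels were read as FPKM from their values, since the file headers name no unit. Read totals were not given, so depth is unknown and no counting interval or limit was computed. The authors' deposited log2 ratio equals log2 of (IP + 0.01) over (input + 0.01) to within 1.57e-09, and ratios and folds here were computed in that way. The deposited p-value was not used, and the deposited q-value (under 0.05) served in an alternative alone. The authors' score and the −log10 p-value of the deposited peak lists were left aside. The authors' fold and −log10 q-value described or filtered peaks within a list. The sources used here do not say whether peaks were called against the input.

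Symbols stood in the MU table and were joined by gene identifier, and 1277 wild-type genes had none. A peak belonged to a gene when its summit lay in the gene's span on the stated strand. Called means at least 2-fold. Members and lists were chosen with earlier results of these data known. Members were named when called higher, among the 5 highest or lowest ratios or differences, the 3 extreme inputs, or the 8 highest peak folds, and by the role groups. Other named genes were Lin28b, Actb, Gapdh and list members at the ends of the range. Rpl7a, the paralogues, the members with WT ratios above 0, the members overlapping a small RNA gene, those whose calls centring changed, and Eif3k, Rack1, Tpt1, Mdn1 and Heatr1 were named outside that rule, after their values had been seen. Start windows came from RefSeq (GRCm38.p6). Calculations used Python 3.11.15, pandas 2.3.3, numpy 2.4.6, scipy 1.17.1 and matplotlib 3.10.9. The ratio and the 2-fold call were tested on simulated data, and the peak and start-window steps were not. Alternatives changed the pseudocount, the centring, the level minimum, the fold, the q-value, the peak rules and the members kept. A few genes are not reported here.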

Additional observations from a re-analysis of the deposited data

Results flagged for a closer look

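The ratio of IP over input lay on opposite sides of 0 in the constructs for 3 members that were at least 2-fold higher in an IP. The WT minus MU difference was 3.78 for Rps16 and 2.17 for Rpl5, both higher in the WT IP than in its input and lower in the MU IP. It was −1.69 for Rpl35a, lower in the WT IP than in its input and higher in the MU IP. With 1 library per group the difference between constructs was not tested for any of them.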

How the results depend on the processing

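Centring each construct's ratios on the median of all genes of its table (−0.29 for WT and −0.61 for MU) gave member medians of −0.65 for WT and −2.07 for MU, a median difference of 1.33, and 50 members with a difference of at least 1. After it 24 members were at least 2-fold lower and 3 higher in the WT IP, Rpl36a (1.11) being added, and 64 were lower in the MU IP. The shares of all genes after centring are not given here, and the shares printed above for uncentred ratios do not apply to these counts. The 9 lower calls lost for WT included Rpl11, Rpl23a, Rps2 and Rpl8, and the 5 lost for MU were Rpl26, Rpl3, Rpl8, Rps3 and Rps3a1. Without the members for which a named pseudogene is listed, 30 members remained, of which 0 were at least 2-fold higher (Rps16 and Rpl5 both have such copies) and 15 lower in the WT IP, 29 were lower in the MU IP and 24 had a difference of at least 1. These counts fall because fewer members were counted. The medians there were −0.98 and −2.73. Leaving out the members that overlap another coding gene, an alternative chosen after seeing the data, left 58 members, with 1 higher in the WT IP (Rps16) and 0 higher in the MU IP, since Rpl5 and Rpl35a overlap such genes. With the peaks above the MU list's median −log10 q-value, 1 member had a MU peak. The large minus small subunit gap changed sign under some alternatives, to 0.01 for WT with a level of at least 10 FPKM in every library and to 0.40 for MU without members with a listed pseudogene. Of the alternative medians, gaps and counts, 57 stayed within 1.5-fold of those reported and 8 did not. Among single members, centring moved all 74 MU ratios by over 1.5-fold, by construction, and 0 of the WT ratios, and a pseudocount of 1 moved none of the 148. Requiring the authors' q-value changed no count. At 1.5-fold 47 members were lower in the WT IP and 72 in the MU IP, and the shares of all genes at that fold are not given here. No paired analysis was possible because each group had 1 library, and no replicate could be left out. Protein length and composition, and GGAG in transcript sequence, were planned but not run. Depth is unknown, so the precision of single levels could not be given.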
